A study of Homo sapiens with 6 samples.

Results

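The integrins and laminins of A549 cells are described here across a knockdown of GSE1. The set holds 38 of the 60612 genes in the deposited table. Their symbols name an integrin alpha chain (18 genes), an integrin beta chain (8 genes) or a laminin alpha, beta or gamma chain (12 genes). The genes were picked by symbol, but the set was chosen with earlier results of these data known. A549 is an established human lung adenocarcinoma line of epithelial origin. Of the 6 RNA-seq libraries, 3 came from A549 cells transfected with an siRNA against GSE1 (siGSE1) and 3 from A549 cells transfected with a negative control siRNA, all collected 48 hours after transfection. The sequence of the GSE1 siRNA, and whether it was 1 sequence or a pool, are not given in any source used here. The labels leave unsaid whether the replicates were separate cultures, so the p-values reflect the scatter among these libraries, and that scatter may be technical.

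Integrins are receptors made of 1 alpha and 1 beta chain that span the cell membrane and join the extracellular matrix outside to the actin or keratin cytoskeleton inside. Laminins are secreted trimers of an alpha, a beta and a gamma chain, and they form the sheet of the basement membrane on which epithelial cells rest. The chains are matched to each other. ITGB4 pairs with ITGA6 alone in the hemidesmosome, the junction that anchors epithelial cells to laminin, whereas ITGB1 pairs with many alpha chains, and ITGAV pairs with ITGB1, ITGB3, ITGB5, ITGB6 or ITGB8. In epithelia LAMA3 and LAMB3 belong to the laminin of the hemidesmosome, and LAMA5 joins LAMB1 or LAMB2 and LAMC1.

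The knockdown was visible in the libraries. GSE1 had 7.37, 8.06 and 7.92 FPKM (fragments of a gene, scaled to exon length and library total) in control replicates 1, 2 and 3 and 3.84, 4.06 and 3.73 in the siGSE1 libraries, which is 48.95% of the control level in the fitted model. Library totals ran from 14475992 to 20755506 counts. The keratin genes of simple epithelium were abundant, with KRT7 at a mean of 576 FPKM, KRT8 at 754 and KRT18 at 902 in control cells. Other epithelial markers had lower means there, KRT19 89.5, CDH1 29.9, CLDN4 3.91 and EPCAM 0.957 FPKM. The lung lineage genes NKX2-1 and SFTPC, markers of alveolar cells, stayed at means of 0.0333 FPKM or less in both groups. Control replicate 2 stood apart for the integrins and laminins. It was the lowest of the 3 control libraries for 17 of 30 members tested (56.7%), against 33.3% of all 15937 genes tested.

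Of the 38 members, 30 passed the filter on low counts and 8 did not. By edgeR's quasi-likelihood test at an adjusted p of 0.05, 11 of the 30 were higher in siGSE1 cells (36.7%), 3 were lower (10.0%) and 16 did not pass. Over all genes tested 10.9% were higher, 9.02% were lower and 19.9% changed in either direction. The median log2 fold change was 0.21 over the 30 members and 0.00 over all genes tested. The FPKM of the 2 groups did not overlap for 18 of the 30, with siGSE1 above for 15 and below for 3, where the shares over all genes tested were 21.2% and 14.9%. When the limits were set at 0.001 for the adjusted p and 0.5 for the size of the log2 fold change, ITGB6, ITGA11, ITGA5 and ITGA1 remained, where 2.55% of all genes tested passed. Without siGSE1 replicate 3, 7 members were higher and 1 lower, and ITGAV, ITGAX, LAMA3, LAMB1, LAMB3 and LAMC1 did not pass. Without control replicate 2, 11 were higher and 3 lower, the same 14 genes. In bulk RNA, fewer cells of a kind and less RNA per cell cannot be told apart.

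**Figure D1:**
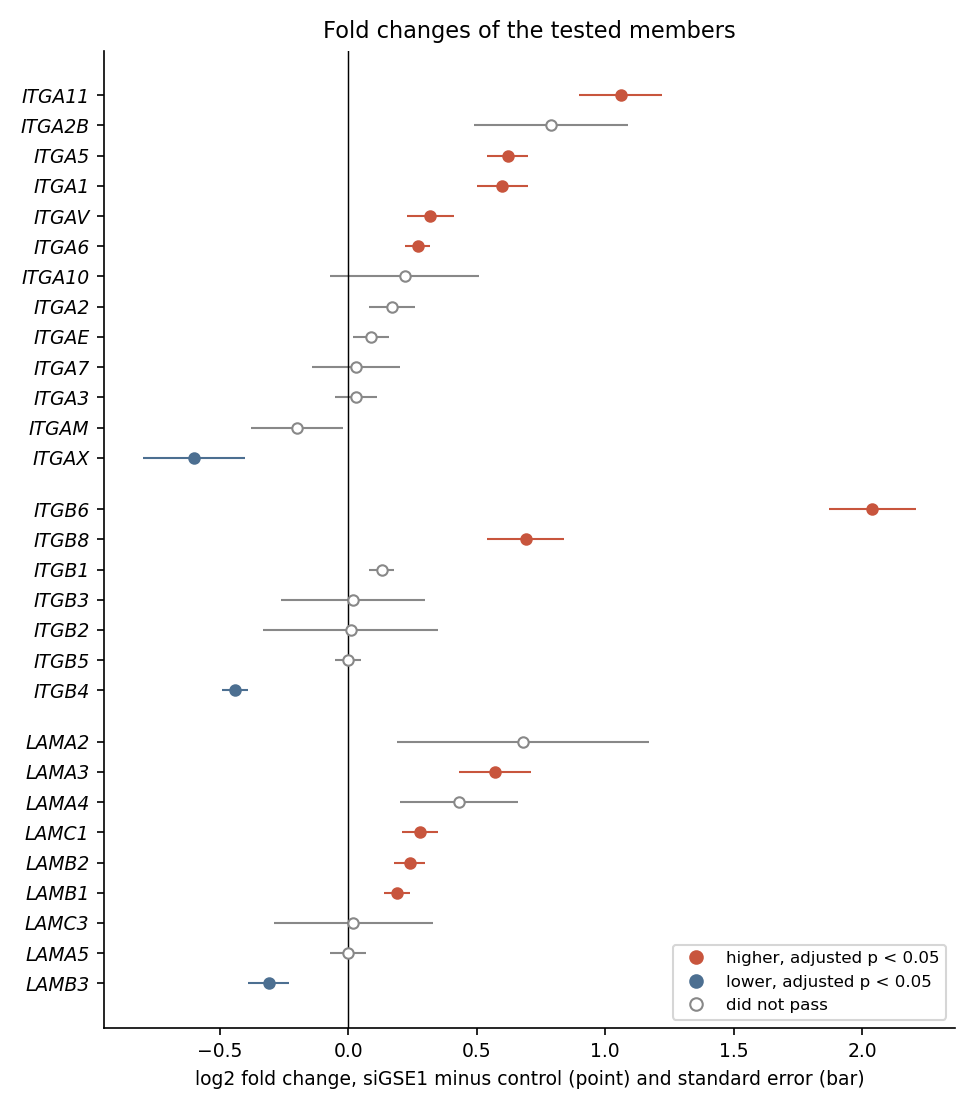
Log2 fold change of 29 tested integrin and laminin genes, siGSE1 minus control, with its standard error from the edgeR fit on 3 libraries per group, and filled points for those past an adjusted p of 0.05. ITGB6 lies farthest to the right at 2.04, and the filled points left of 0 are ITGAX, ITGB4 and LAMB3.

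The most abundant integrin chain was ITGB1, at 187 ± 11.9 FPKM in control cells (SD, n = 3), followed by ITGA3 at 84.2 ± 12.3, ITGB4 at 77.0 ± 2.96 and ITGB5 at 72.7 ± 1.99. Among alpha chains the order in control cells was ITGA3, ITGAV, ITGA6, ITGA2, ITGA5 and ITGAE, and only ITGA2 and ITGA5 in that run of 6 had overlapping ranges. In siGSE1 cells ITGA5, at 15.9 to 17.6 FPKM, stood above ITGA2, at 14.4 to 15.8, with no overlap. Among beta chains ITGB4 (75.1 to 80.4 FPKM) lay just above ITGB5 (71.3 to 75.0) in control cells, and in siGSE1 cells ITGB5 (71.9 to 75.2) lay above ITGB4 (56.5 to 58.6). Among laminins LAMA5 and LAMB1 led in both groups with overlapping ranges, and LAMC1, LAMB2, LAMB3 and LAMA3 were lower in that order, each apart from the one named before it.

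**Figure D2:**
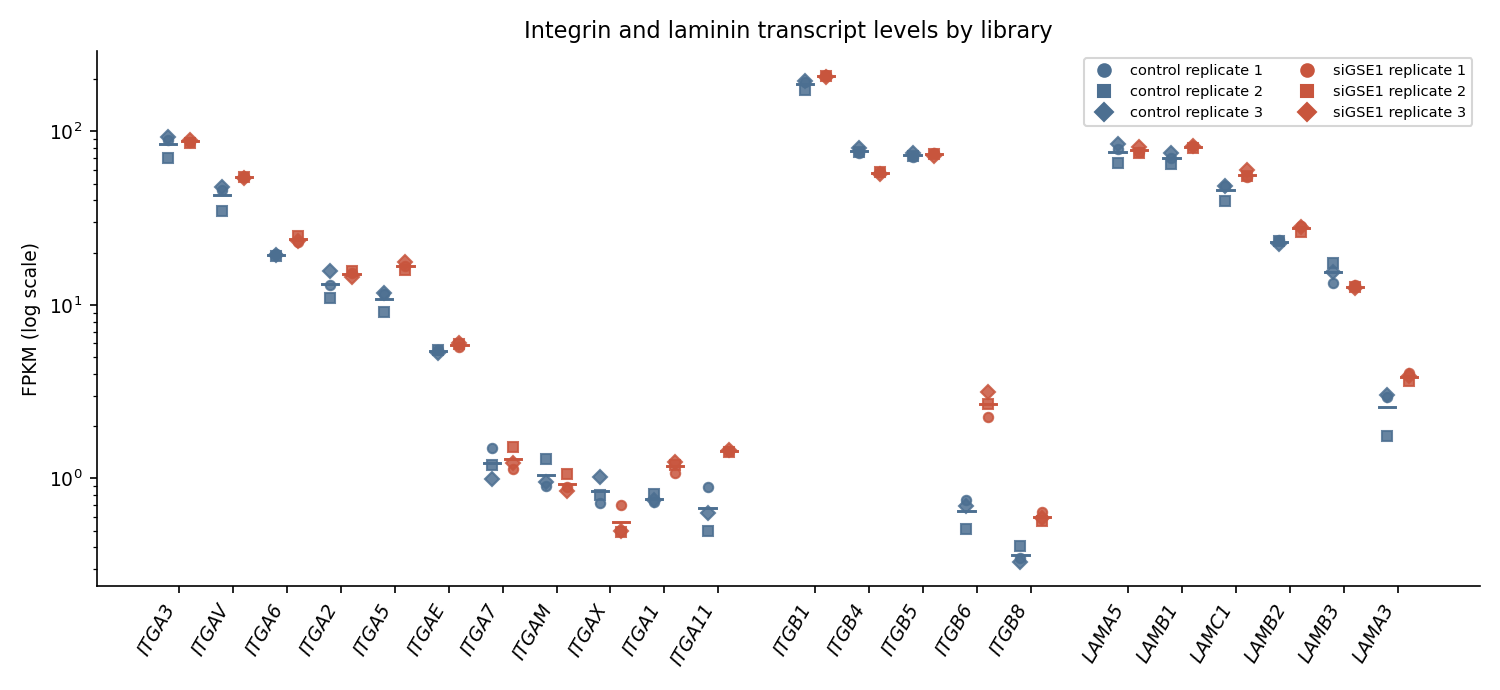
FPKM on a log axis of 22 members with a mean of at least 1 FPKM in either group or a passed test, by library (blue control, red siGSE1, horizontal lines group means, n = 3 each). ITGB1 is the highest, ITGB6 moves from 0.65 to 2.70 FPKM on average, and control replicate 2 (blue squares) is the low point of LAMA3 and ITGAV.

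ITGB6 rose most. Its protein pairs with ITGAV into an epithelial receptor that binds latent TGF-beta and helps to activate it. ITGB6 (ENSG00000115221, hg38 chromosome 2, 160099667 to 160200313, minus strand) had 0.75, 0.51 and 0.69 FPKM in control replicates 1, 2 and 3 and 2.25, 2.69 and 3.16 in siGSE1 replicates 1, 2 and 3. Every siGSE1 library lay above every control library, on 58 to 89 counts against 228 to 364. The fold change was 4.10 (log2 fold change 2.04, SE 0.17, adjusted p = 8.05e-07). ITGB6 remained the least abundant of the beta chains above 1 FPKM in siGSE1 cells, taking 0.787% ± 0.143 of the summed beta chain FPKM there against 0.1915% ± 0.03095 in control cells (SD, n = 3 each). A transcript on the same strand inside its span, AC092153.1, held 16.3% as many counts and was higher too, by 1.38 on the log2 scale (SE 0.37, adjusted p = 0.0161), and reads shared by the pair cannot be told apart here.

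The other partners of ITGAV were mixed. ITGAV (ENSG00000138448, hg38 chromosome 2, 186590056 to 186680901, plus strand), the alpha chain of receptors for vitronectin, fibronectin and latent TGF-beta, had 46.2, 34.5 and 47.9 FPKM in the control libraries and 54.8, 54.6 and 53.6 in the siGSE1 libraries. The groups did not overlap, but the lowest control value was again that of replicate 2, and the log2 fold change of 0.32 (SE 0.09, adjusted p = 0.0168) was 0.18 without that library (adjusted p = 0.00582). ITGAV lost its call under DESeq2 (adjusted p = 0.119), edgeR's robust prior (0.164) and limma on log2(FPKM + 1) (0.0736) or log2(FPKM + 0.1) (0.0705). The call was also lost when any 1 siGSE1 library was left out (adjusted p = 0.064 to 0.0688). ITGB8, a second activator of latent TGF-beta, had 0.35, 0.41 and 0.33 FPKM in the controls and 0.64, 0.57 and 0.59 in siGSE1 cells. It rose 1.61-fold (log2 fold change 0.69, SE 0.15, adjusted p = 0.00345), from 72 to 129 counts per library to 167 to 178. ITGB5, the vitronectin receptor chain, was level, with 71.3, 71.9 and 75.0 FPKM against 75.2, 74.3 and 71.9 and overlapping groups (adjusted p = 0.970). ITGB3 stayed low at 0.27 to 0.64 FPKM in all libraries (adjusted p = 0.971). As a ratio to ITGAV, ITGB6 went from 0.0151 ± 0.000971 to 0.0498 ± 0.00896 (SD, n = 3 each).

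ITGA5, whose protein with ITGB1 is the main fibronectin receptor, had 11.5, 9.06 and 11.8 FPKM in control replicates 1, 2 and 3 and 16.8, 15.9 and 17.6 in the siGSE1 libraries. All siGSE1 values lay above the controls, and the low control was replicate 2. ITGA5 (ENSG00000161638, hg38 chromosome 12, 54395261 to 54419266, minus strand) rose 1.53-fold (log2 fold change 0.62, SE 0.08, adjusted p = 7.11e-05), and the log2 fold change was 0.50 without control replicate 2. ITGB1 itself did not pass, although its groups did not overlap, with 193, 173 and 194 FPKM in the controls and 211, 208 and 206 in siGSE1 cells (log2 fold change 0.13, SE 0.05, adjusted p = 0.0856). ITGB1 passed with library totals alone as the scaling (adjusted p = 0.0333), with TPM scaling (0.0351), with no filter on low counts (0.0375) and without control replicate 1 (0.0364). The ITGA5 share of all alpha chain FPKM was 5.95% ± 0.0907 with the control siRNA and 8.00% ± 0.376 after knockdown (SD, n = 3 each). ITGA2B, the platelet fibrinogen receptor chain, had only 16 to 26 counts in control libraries and 35 to 40 in siGSE1 libraries, groups apart, and did not pass (adjusted p = 0.0771), though it passed under limma on TPM, log2(FPKM + 1) and log2(FPKM + 0.1). ITGA8, which pairs with ITGB1 in mesenchymal cells, had 0 counts in all 6 libraries.

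Among the collagen receptors, which all pair with ITGB1, ITGA11 and ITGA1 rose, and ITGA2 and ITGA10 did not pass. ITGA11, a receptor for fibrillar collagen best known from fibroblasts, had 0.89, 0.50 and 0.63 FPKM in the controls and 1.43, 1.42 and 1.45 in siGSE1 cells. The siGSE1 values were nearly equal to each other and above every control. ITGA11 (ENSG00000137809, hg38 chromosome 15, 68296532 to 68432163, minus strand) rose 2.08-fold (log2 fold change 1.06, SE 0.16, adjusted p = 2.65e-04). Of 8 fibroblast markers 7 were under 1 FPKM in every library, COL1A2, COL3A1 and DCN at or below a mean of 0.0300. The exception was COL1A1, with 1.25, 0.99 and 1.44 FPKM in control and 1.56, 1.17 and 1.54 in siGSE1 cells, overlapping groups. The 4 markers tested, COL1A1, LUM, PDGFRA and THY1, did not pass, with log2 fold changes of 0.20, 0.69, 0.82 and 0.44. The 8 markers summed to 1.42 to 2.49 FPKM in control and 2.49 to 2.78 in siGSE1 cells. The part of that difference in the ITGA11 result was not tested. ITGA1, a receptor for basement membrane collagen, rose 1.51-fold, from 0.73, 0.81 and 0.75 FPKM to 1.08, 1.20 and 1.25 (log2 fold change 0.60, SE 0.10, adjusted p = 4.25e-04). PELO, a gene on the same strand within the ITGA1 span with 253% of its counts, had a log2 fold change of -0.21 (adjusted p = 0.0508). ITGA2, the main collagen receptor chain here, had 13.0, 11.0 and 15.7 FPKM in control and 15.2, 15.8 and 14.4 in siGSE1 cells, overlapping groups, and did not pass (adjusted p = 0.196). It was called higher with no filter on low counts and without control replicate 3. ITGA10, at 0.19 to 0.37 FPKM, did not pass (adjusted p = 0.654).

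The sequence before the start of ITGB6 and of ITGA11, which had the largest fold changes of the set, is given here with that of LAMB3, a laminin chain that fell. The windows are those of a RefSeq table on GRCh38.p14, 250 bases before each start on the strand of the gene, and the parts printed leave out exons annotated in GENCODE release 29. The ITGB6 stretch is chr2:160200314-160200522, the ITGA11 stretch chr15:68432164-68432413 and the LAMB3 stretch, from the most downstream of 3 listed starts, chr1:209651395-209651624, all on the minus strand. Capitals mark TGACTCA (the AP-1 element), GGGCGG (the GC box) and CCACCC (the CACCC box bound by KLF factors) on either strand.
ITGB6: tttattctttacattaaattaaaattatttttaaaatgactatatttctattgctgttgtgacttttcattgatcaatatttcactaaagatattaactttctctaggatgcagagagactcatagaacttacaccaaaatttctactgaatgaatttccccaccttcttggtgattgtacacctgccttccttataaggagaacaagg
ITGA11: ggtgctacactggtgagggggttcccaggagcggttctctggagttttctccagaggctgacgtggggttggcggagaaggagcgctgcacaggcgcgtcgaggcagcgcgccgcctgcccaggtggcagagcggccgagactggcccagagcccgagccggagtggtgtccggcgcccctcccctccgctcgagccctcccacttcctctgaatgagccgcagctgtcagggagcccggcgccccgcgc
LAMB3: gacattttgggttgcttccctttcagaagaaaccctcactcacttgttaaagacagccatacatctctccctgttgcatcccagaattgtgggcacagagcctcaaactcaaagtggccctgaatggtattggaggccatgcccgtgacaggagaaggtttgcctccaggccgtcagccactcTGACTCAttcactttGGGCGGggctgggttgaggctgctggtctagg
The ITGB6 and ITGA11 windows held 0 copies of the 3 motifs, and the LAMB3 stretch held 1 AP-1 element and 1 GC box. The ITGB6 window was poor in G and C, at 30.0% against 71.2% for ITGA11, 54.0% for LAMB3 and a median of 58.0% over all 35116 windows. A window was found for 26 of the 38 members, 33 windows in all. Of these, 17 held GGGCGG (51.5%, against 42.6% of the 35116 windows), 17 held CCACCC (51.5%, against 31.3%) and 2 held TGACTCA (6.06%, against 4.20%). The second of those 2 was a start of LAMA3, a chain that rose (log2 fold change 0.57), and it held 2 copies. The windows of the other LAMB3 starts held 0 copies of TGACTCA. These matches are letters in a window and were not tested against expression.

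The laminin receptors divided. ITGB4, the hemidesmosome chain, fell, while its partner ITGA6 rose. ITGB4 (ENSG00000132470, hg38 chromosome 17, 75721328 to 75757818, plus strand) had 75.1, 75.6 and 80.4 FPKM in control replicates 1, 2 and 3 and 58.0, 58.6 and 56.5 in siGSE1 replicates 1, 2 and 3, with all siGSE1 values below all controls. Its log2 fold change was -0.44 (SE 0.05, adjusted p = 1.12e-05). ITGA6 (ENSG00000091409, hg38 chromosome 2, 172427354 to 172506459, plus strand) had 19.7, 19.1 and 19.5 FPKM in the controls and 23.1, 25.0 and 23.4 in siGSE1 cells, again apart, for a log2 difference of 0.27 (SE 0.05, adjusted p = 0.00197). Control replicate 2 lay at 0.972 of the mean of the other controls for ITGB4 and at 0.974 for ITGA6. The ratio of ITGB4 to ITGA6 was 3.82, 3.96 and 4.12 in the control libraries and 2.51, 2.34 and 2.42 in the siGSE1 libraries (exact two-sided permutation p = 0.1, the smallest that 3 against 3 allow). ITGB4 took 22.8% ± 0.744 of the beta chain FPKM with the control siRNA and 16.8% ± 0.170 after knockdown, and ITGB1 took 55.17% ± 1.405 and 60.6% ± 0.207 (SD, n = 3 each). Of the 9 markers of A549 and lung epithelium, 7 were tested, 0 were higher by edgeR (also 0 at an unadjusted p of 0.05 and 0 by DESeq2) and 3 were lower. Over all genes tested 10.9% were higher and 9.02% lower. The lower markers were KRT8, KRT18 and CLDN4, with log2 fold changes of -0.26, -0.25 and -0.72. KRT8 and KRT18 lost their calls under 7 and 9 of 15 other settings, among them leaving out any 1 siGSE1 library, and KRT18 also without control replicate 2. CLDN4 kept its call under all 15. The markers' summed FPKM was 2203 to 2538 in control and 2101 to 2115 in siGSE1 cells. Their part in the ITGB4 result was not tested. GALK1, whose span overlaps that of ITGB4 on the opposite strand with 12.5% of its counts, had a log2 fold change of -0.16 (adjusted p = 0.0810).

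ITGA3, whose protein with ITGB1 binds the laminins of epithelia and which is the most abundant alpha chain here, did not pass. It had 89.2, 70.2 and 93.1 FPKM in the controls and 87.1, 85.4 and 89.7 in siGSE1 cells, so control replicate 2 was the lowest library and the other controls lay among or above the siGSE1 values (log2 fold change 0.03, SE 0.08, adjusted p = 0.831). Without control replicate 2 the log2 fold change was -0.09 (adjusted p = 0.225). ITGA7, a laminin receptor chain of muscle, was at 0.99 to 1.51 FPKM in all libraries and did not pass (adjusted p = 0.917). Its span is shared with METTL7B and BLOC1S1 on the opposite strand, which held 195% and 186% of its counts, and with AC009779.3 (31.2%), so its level is uncertain where counting did not use strand.

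**Figure D3:**
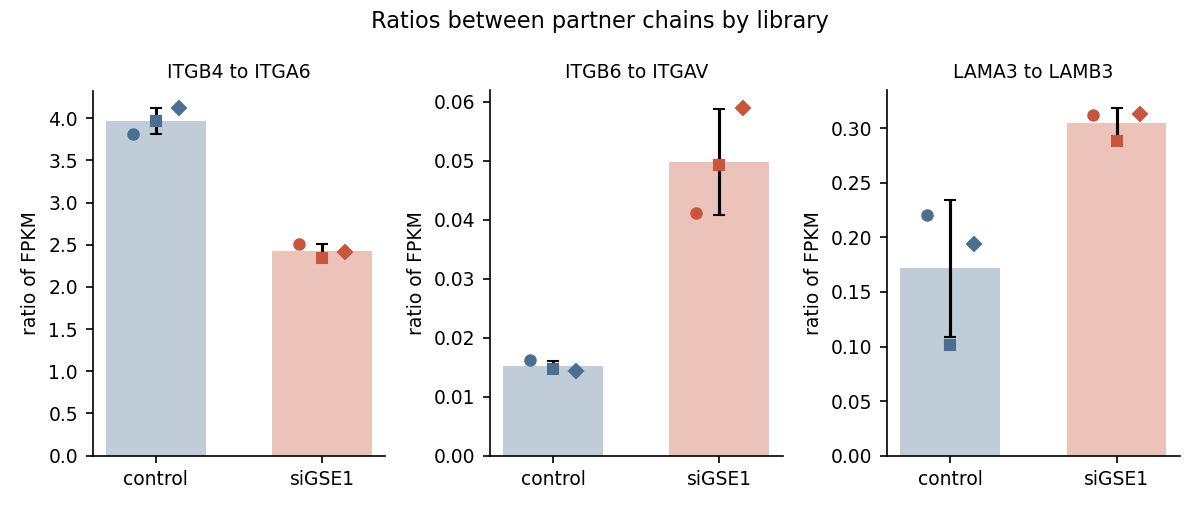
Ratios of deposited FPKM between chains that form 1 protein, by library (points), with the group mean (bar) and SD (line), n = 3 each. ITGB4 to ITGA6 drops from 3.97 to 2.43 with groups apart, and the lowest control ratio of LAMA3 to LAMB3, 0.101, is that of control replicate 2.

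LAMA3 and LAMB3, chains of the laminin of the hemidesmosome, moved in opposite directions. LAMB3 (ENSG00000196878, hg38 chromosome 1, 209614870 to 209652425, minus strand) had 13.4, 17.3 and 15.6 FPKM in the controls and 13.0, 12.6 and 12.5 in siGSE1 cells, a small gap between the groups, with a log2 difference of -0.31 (SE 0.08, adjusted p = 0.00997). LAMA3 (ENSG00000053747, hg38 chromosome 18, 23689443 to 23956222, plus strand) had 2.96, 1.75 and 3.01 FPKM in the controls and 4.05, 3.64 and 3.90 in siGSE1 cells, for a log2 difference of 0.57 (SE 0.14, adjusted p = 0.00832). Control replicate 2 held the lowest LAMA3 and the highest LAMB3 of the controls. Without that library the log2 fold change of LAMA3 was 0.35 (adjusted p = 3.48e-04) and that of LAMB3 was -0.21 (adjusted p = 0.0203). LAMA3 lost its call under DESeq2 (adjusted p = 0.112), edgeR's robust prior (0.187) and limma on TPM (0.059), log2(FPKM + 1) (0.0709) or log2(FPKM + 0.1) (0.0752). LAMB3 lost its call under limma on TPM (adjusted p = 0.108), log2(FPKM + 1) (0.0771) or log2(FPKM + 0.1) (0.0736). The ratio of LAMA3 to LAMB3 was 0.221, 0.101 and 0.194 in the controls and 0.312, 0.288 and 0.313 in siGSE1 cells, with no overlap (exact two-sided permutation p = 0.1).

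**Figure D4:**
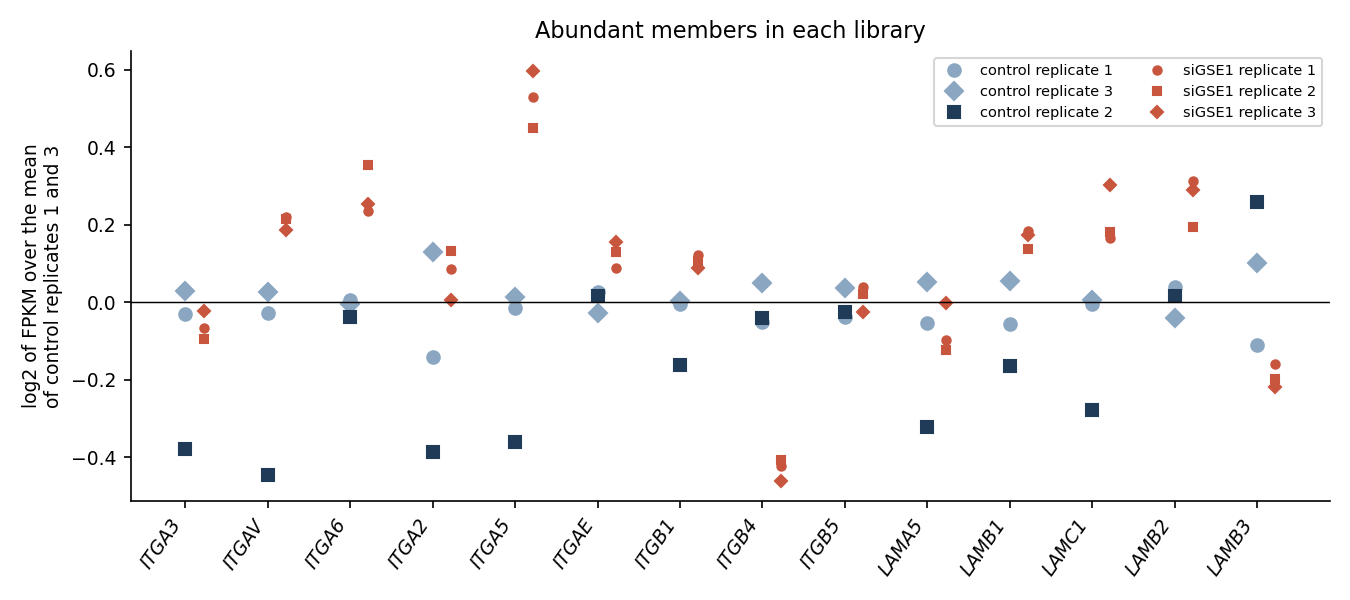
Log2 of each library's FPKM over the mean of control replicates 1 and 3, for 14 members with a mean of at least 5 FPKM in either group (blue control, red siGSE1). Control replicate 2 (dark squares) is the lowest control for 9 of the 14, reaching -0.45 for ITGAV, and the highest for LAMB3 alone.

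The chains of the general epithelial laminins rose slightly, apart from LAMA5. LAMC1 (ENSG00000135862, hg38 chromosome 1, 183023420 to 183145592, plus strand), the gamma chain of most laminins, had 48.3, 39.9 and 48.6 FPKM in the controls and 54.3, 54.9 and 59.7 in siGSE1 cells (log2 fold change 0.28, SE 0.07, adjusted p = 0.00928). LAMB2 (ENSG00000172037, hg38 chromosome 3, 49121114 to 49133118, minus strand) had 23.6, 23.3 and 22.4 FPKM in the controls and 28.6, 26.3 and 28.2 in siGSE1 cells (log2 fold change 0.24, SE 0.06, adjusted p = 0.00641). The tight LAMB2 controls include replicate 2. LAMB1, the beta chain alternative to LAMB2, had 69.8, 64.7 and 75.3 FPKM against 82.4, 79.9 and 81.8, apart but by a smaller margin (log2 fold change 0.19, SE 0.05, adjusted p = 0.0199). LAMB1 lost its call when any 1 of the siGSE1 libraries was left out (adjusted p = 0.0554 to 0.0941). DLD, which overlaps the span of LAMB1 on the opposite strand with 18.9% of its counts, had a log2 fold change of -0.20 (adjusted p = 0.0142). LAMA5, the major alpha chain with 96.4% ± 0.498 of the laminin alpha FPKM in control cells (SD, n = 3), had 78.7, 65.3 and 84.6 FPKM there and 76.4, 75.0 and 81.6 in siGSE1 cells, overlapping groups (adjusted p = 0.984). ADRM1 overlaps the span of LAMA5 on the opposite strand with 13.7% of its counts and did not pass (adjusted p = 0.293). The ratio of LAMA5 to LAMC1 was 1.67 ± 0.0623 in control and 1.38 ± 0.0231 in siGSE1 cells (SD, n = 3 each), with the groups apart (exact two-sided permutation p = 0.1). LAMB1 to LAMC1 overlapped between groups, at 1.45 to 1.62 and 1.37 to 1.52.

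The remaining laminin chains were scarce. LAMA4, of vessel and mesenchymal basement membranes, had 48 to 59 counts in control and 61 to 81 in siGSE1 libraries (adjusted p = 0.208). LAMA2, of muscle, had 6 to 21 counts in any library (adjusted p = 0.372), and BMPR1AP1 and AL356124.1 lie on its opposite strand with 35.7% and 37.1% of its counts. LAMC3 had 19 to 45 (adjusted p = 0.972). LAMA1, of early embryos, had 0 to 2 counts and LAMB4 3 to 10, and neither passed the filter.

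Integrins best known from blood cells, and ITGA9, which was grouped with them here, were scarce, apart from ITGAE. ITGAX, a complement receptor chain of myeloid cells, was the only one that passed, and it fell, with 0.72, 0.80 and 1.02 FPKM in control and 0.70, 0.49 and 0.50 in siGSE1 cells. The highest siGSE1 value lay just under the lowest control value (log2 fold change -0.60, SE 0.20, adjusted p = 0.0414). The call was lost under 9 of 15 other settings, DESeq2 among them (adjusted p = 0.0676). ITGAM, its neighbour on chromosome 16, had 0.85 to 1.29 FPKM in all libraries (adjusted p = 0.485). ITGB2, the beta chain that both require at the cell surface, had 20 to 36 counts in any library (adjusted p = 0.994), and its span is shared with ITGB2-AS1 on the opposite strand (40.3% of its counts) and AL844908.2 on the same strand (18.2%). Of 8 leukocyte markers 7 were under 1 FPKM in every library, and PTPRC, present on nearly all leukocytes, had means of 0 FPKM in control and 0.00333 in siGSE1 cells. The exception was CD14, a myeloid marker, with 3.46, 5.67 and 3.31 FPKM in control and 4.85, 3.64 and 3.14 in siGSE1 cells, overlapping groups (adjusted p = 0.70). The 8 markers summed to 3.68 to 5.95 FPKM and 3.33 to 5.00, and their part in the ITGAX result was not tested. ITGAE, known from T cells of epithelia, had 5.50, 5.46 and 5.30 FPKM in control and 5.74, 5.91 and 6.02 in siGSE1 cells, apart but not past the test (adjusted p = 0.371). HASPIN lies inside ITGAE on the opposite strand with 42.5% of its counts. ITGA4 (0 to 7 counts), ITGA9 (0 to 2), ITGAD (1 to 6), ITGAL (2 to 24) and ITGB7 (3 to 13) did not pass the filter, and the 24 ITGAL counts were in control replicate 2.

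Genes that work with integrins and laminins were taken from lists that do not contain the members. The lists, too, were chosen with earlier results of these data known. Basement membrane components had 13 of 24 tested genes higher (10.9% of all genes tested were higher), 1 lower and 10 that did not pass, with a median log2 fold change of 0.46. Without control replicate 2, 2 were lower. COL4A4, a chain of type IV collagen, had 2.73, 2.66 and 2.74 FPKM in control and 4.69, 4.80 and 5.00 in siGSE1 cells (log2 fold change 0.81, adjusted p = 9.58e-07). COL4A3, its partner chain, rose by 0.75 on the log2 scale, NID2, which links laminin to collagen, by 0.84, and the laminin-binding netrin NTN4 by 0.47. The 1 lower gene was SPARC, a collagen-binding matrix protein, with 0.39, 0.78 and 0.25 FPKM against 0.07, 0.10 and 0.14, and COL7A1, the collagen of anchoring fibrils, rose by 1.12 on the log2 scale, and both were chosen after their values were seen. Ligands of integrins other than laminin had 11 of 22 higher, 3 lower and 8 that did not pass, with a median of 0.28. NID1, which was higher, is counted in both lists. Over all genes tested 9.02% were lower. THBS1, TNC, LTBP1, the binding protein of latent TGF-beta, and the disintegrin ADAM15 rose by 0.79, 1.04, 0.43 and 0.70 on the log2 scale. The 3 lower ligands, named after their values were seen, were the ITGAV ligand VTN (log2 fold change -0.88), SPP1 (-0.32) and ICAM1 (-0.92). VTN had 27.5, 47.8 and 28.7 FPKM in control and 20.0, 19.9 and 18.0 in siGSE1 cells. SPP1 had 140, 164 and 126 against 120, 119 and 112. Control replicate 2 was the highest library for both, and both kept their calls without it. VTN lost its call under edgeR's robust prior. SPP1 lost its call under limma on TPM, log2(FPKM + 1) or log2(FPKM + 0.1), and without siGSE1 replicate 3.

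On the cell side the tail adaptors and activators of integrins had 9 of 29 tested genes higher, 0 lower and 20 that did not pass, with a median of 0.10. At an unadjusted p of 0.05 edgeR called 1 lower, and DESeq2 called 0 after adjustment. By edgeR 5 were higher without siGSE1 replicate 3, and 2 were lower without control replicate 2. TNS1, a tensin that ties beta chain tails to actin, had 1.45, 1.61 and 1.84 FPKM in control and 2.85, 2.59 and 3.23 in siGSE1 cells (log2 fold change 0.81, adjusted p = 2.12e-05). FERMT2, a kindlin that activates integrins, rose by 0.39 on the log2 scale, TNS2 by 0.31 and TNS4 by 0.28. Of 19 signaling kinases of integrins and their adaptors, 5 were higher, 2 lower and 12 did not pass, with a median of 0.10, where 10.9% of all genes tested were higher and 9.02% lower. RAC1, DOCK1 and the SRC inhibitor CSK rose by 0.62, 0.40 and 0.42 on the log2 scale, and SRC fell by 0.25, from 76.8, 85.2 and 81.4 FPKM to 69.3, 68.8 and 69.8. The other lower gene was FYN, a SRC family kinase named after its values were seen, at -0.72 (adjusted p = 0.0387), and its call was lost under 10 of 15 other settings, among them leaving out any 1 library except control replicate 2. Among hemidesmosome and tetraspanin partners 1 of 10 was higher, 2 lower and 7 did not pass, with a median of -0.02. KRT5 and KRT14 of that list did not pass the filter. They had 144 and 116 counts in control replicate 1 and at most 1 and 8 in any other library. With no filter on low counts 4 were lower. CD151, the tetraspanin bound to ITGA3 and ITGA6, rose by 0.31 on the log2 scale, and the tetraspanins CD9 and CD82 had -0.21 and -0.73. CD9 lost its call under 6 of 15 other settings, among them leaving out control replicate 1, siGSE1 replicate 1 or siGSE1 replicate 3. Among 9 laminin receptors outside the integrins 3 were higher, SDC4 (0.63), DAG1, the dystroglycan (0.34), and SDC1 (0.18), and 1 lower, BCAM, which binds LAMA5 (-0.20, adjusted p = 0.0477), with a median of 0.05. The BCAM call was lost under 11 of 15 other settings, DESeq2 among them, and without control replicate 1, control replicate 3, siGSE1 replicate 2 or siGSE1 replicate 3. SDC1 lost its call when any 1 library other than control replicate 2 was left out.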

How the data were processed

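The submitters sequenced RNA of A549 cells in 6 libraries (3 control siRNA, 3 GSE1 siRNA). The deposited table holds read counts per gene and FPKM values made by the authors. The submitters' processing notes name bcl2fastq, FastQC, cutadapt, HISAT2, StringTie 1.3.3b, HTSeq, edgeR and hg38, while the series text names STAR and DESeq2, so which made the table is not settled. Deposited FPKM equalled count over exonic length and library total within 0.0051, and whether counting used strand is unstated in the sources used here, so overlapping genes on opposite strands cannot be told apart.

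Counts were tested with edgeR 4.0.16 in R 4.3.3 (TMM scaling, quasi-likelihood F-test, siGSE1 against control, no covariate) on 15937 genes that passed filterByExpr (minimum count 10, minimum total 15), with Benjamini-Hochberg adjustment over all of them and a threshold of 0.05. The standard error is the absolute log2 fold change over the square root of F. FPKM served for levels, shares and ratios, which were compared with an exact permutation test that cannot go below 0.1. Alternatives were DESeq2 1.42.0, limma 3.58.1 on log2(FPKM + 1), log2(FPKM + 0.1) and TPM, other scalings, no filter, a robust prior, a replicate block, stricter limits and leaving out each library. The edgeR fit was also run on counts simulated from its own fitted model, with changes placed only in genes of higher counts. That run cannot show how the fit treats scarce members or an outlying library.

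The members and gene lists were chosen with earlier results of these data known. Each member past the threshold, or at 5 FPKM or more on average in either group, has its value in every library, and others have ranges. The values of 1 member are not reported here, though it is included in the counts over members. From each partner list up to 4 genes past the threshold with the smallest adjusted p are named, and overlapping genes where they hold over 5% of a member's counts.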

Additional observations from a re-analysis of the deposited data

How the results depend on the processing

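Of the 14 members past the threshold, 8 kept their call under all 15 alternatives that changed the fit or left out a library (ITGA1, ITGA5, ITGA6, ITGA11, ITGB4, ITGB6, ITGB8 and LAMB2). The count of members higher, 11, was 4 under the stricter limits (adjusted p of at most 0.001, absolute log2 fold change of at least 0.5) and 7 to 13 when 1 library was left out. The count lower, 3, was 1 with TPM, 1 with log2(FPKM + 1), 1 with log2(FPKM + 0.1), 0 under the stricter limits and 1 to 3 with 1 library left out. Over all genes, 1730 higher became 258 under the stricter limits and 1049 to 1914 with 1 library left out. The 1437 lower became 702 with TPM, 887 with log2(FPKM + 1), 909 with log2(FPKM + 0.1), 148 under the stricter limits and 814 to 1648 with 1 library left out. Of all genes called, 54.6% rose in the fit reported, against 72.9% with TPM and 62.4% with library totals alone. The cause of these shifts was not tested. Of the members that did not pass and have values in every library, ITGA3, ITGB5 and LAMA5 changed sign. ITGA3 ranged from -0.09 to 0.09 with 1 library left out. ITGB5, at -0.0037, was 0.02 with library totals alone, 0.06 with TPM, 0.0047 with no filter, 0.02 with either pseudocount and -0.02 to 0.01 with 1 library left out. LAMA5, at 0.0032, was -0.0022 with DESeq2, -0.0033 with its size factors in edgeR and -0.10 to 0.07 with 1 library left out.

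Same-numbered libraries did not deviate together (correlations of 0.02, -0.02 and 0.00). The labels do not say whether the replicate numbers pair the libraries, and these correlations cannot settle it. With a replicate block 12 members were higher and 2 lower (1715 and 1382 over all genes), ITGAX no longer passing (adjusted p = 0.0517). Depth limits the scarce members: of the 30 tested, LAMA2, with 6 to 21 counts a library, had the widest SE, 0.49 on the log2 scale.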

Other observations

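Genes of integrin trafficking had 2 of 14 tested higher, 1 lower and 11 that did not pass, with a median log2 fold change of 0.01. Over all genes tested 10.9% were higher and 9.02% lower, so these counts are near those shares. EEA1, an early endosome tether, had 1.73, 1.54 and 1.97 FPKM in control and 3.17, 2.93 and 2.80 in siGSE1 cells (log2 fold change 0.75, edgeR adjusted p = 5.44e-05), with the groups apart. RAB5A, the early endosome GTPase, rose by 0.33 on the log2 scale, and SNX17, which recycles beta chains, fell by 0.21.

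Proteases that act on laminin and matrix, with their inhibitors, had 2 of 12 tested higher, 3 lower and 7 that did not pass, with a median of 0.13, where 10.9% of all genes tested were higher and 9.02% lower. BMP1, which trims laminin chains, rose by 0.34 on the log2 scale and the gelatinase MMP2 by 0.70, while the inhibitors TIMP1 and TIMP2 fell by 0.17 and 0.19. The other gene that fell, PLAT, a plasminogen activator named after its values were seen, had a log2 fold change of -0.62 (edgeR adjusted p = 0.0451). These counts moved with single libraries. The 3 lower became 0 without siGSE1 replicate 1 or siGSE1 replicate 3, and 1 without siGSE1 replicate 2 or control replicate 2, and were 0 with TPM and 1 with library totals alone. The 2 higher became 1 without control replicate 2, siGSE1 replicate 2 or siGSE1 replicate 3, where MMP2 did not pass. PLAT lost its call under 11 of 15 other settings, TIMP1 under 8 and TIMP2 under 3. Platelet markers, beside the low ITGA2B, summed to 3.59 to 4.89 FPKM in control and 2.80 to 3.91 in siGSE1 cells, with GP9 at 0, GP1BA at 2.31, 2.93 and 2.78 against 1.82, 2.31 and 2.48, and PF4 at 1.20, 1.62 and 1.07 against 0.66, 1.47 and 0.52. Their part in the ITGA2B values was not tested. The 6 endothelial markers were under 1 FPKM in every library.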
